A study of Mus musculus with 36 samples.

Results

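Il3ra, Casp8, Adam22, Rimkla, Chst10, Pls1, Pabpc4l and Gtpbp10 are 8 genes, of the 49671 in the count table, that were picked because their transcripts were lower in mouse stem cells without Mll2 and were not lower after loss of Bod1L or Setd1a. The values that chose them are the knockout contrasts of these same libraries, so their differences between Mll2 knockout and wild-type cells are descriptions, and where calls of the 8 genes in these contrasts are counted, the count supports nothing. All 8 passed the filter on low counts and stood among the 23501 genes tested. For 7 of the 8 genes the measured values fit that choice. Gtpbp10 did not, as it was also lower in Bod1L and Setd1a knockout cells. In the Mll2 line its genotypes were separate with knockout lower in 2i only, and not in FCS or EpiSC medium. The set is therefore described as 7 genes and, separately, Gtpbp10.

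By its title the study concerns the Bod1L subunit of the Setd1a complex, and Mll2 is another methyltransferase of this kind. RNA-seq counts were made for 36 libraries from 3 conditional mouse lines (Mll2, Bod1L and Setd1a), each as knockout and as wild-type cells grown in 3 media, with 2 biological replicates per group by the labels. Titles of the knockout libraries name tamoxifen and those of the wild-type libraries do not, so tamoxifen and genotype cannot be told apart. The labels do not say how many clones stand behind a line. The groups in each line were knockout and wild-type embryonic stem cells in 2i (LIF with PD0325901 and CT99021, labelled naive), in FCS (LIF with serum, labelled cycling) and in EpiSC medium (Activin A and FGF2). Cell type and medium changed together in EpiSC medium. The samples of a group are cultures of 1 line, and every p value measures the spread between such cultures.

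Mll2 is the product of Kmt2b, one of the enzymes that methylate lysine 4 of histone H3. It carries a CXXC domain that binds unmethylated CpG-rich DNA, and in embryonic stem cells it is known for placing this mark at promoters that also carry the Polycomb mark, called bivalent. Bod1L and Setd1a belong to a different complex of the same family, which acts broadly at active promoters. The 8 genes share no known pathway. Il3ra encodes the ligand-binding chain of the interleukin-3 receptor, Casp8 the initiator protease of death receptor signalling, and Adam22 a catalytically inactive membrane protein that binds secreted LGI proteins. Rimkla makes the neuropeptide N-acetylaspartylglutamate and Chst10 adds the sulfate of the HNK-1 carbohydrate. Pls1 encodes an actin-bundling plastin, Pabpc4l a poly(A)-binding protein relative, and Gtpbp10 a GTPase of mitochondrial ribosome assembly.

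Since Mll2 binds CpG-rich DNA, the 250 bases before the RefSeq start of 4 of the genes are shown 5′ to 3′ from the RefSeq sequences of build GRCm38.p6, with every CG in capitals. Il3ra (chr14:14346245-14346494 on the plus strand) and Rimkla (chr4:119492599-119492848 on the minus strand) had the most CG dinucleotides of the set, with 27 and 26. Gtpbp10 (chr5:5559542-5559791 on the minus strand), the gene that was also lower in the other lines, had 16. Casp8 (chr1:58802252-58802501 on the plus strand) had the fewest, with 5, and its RefSeq start lies 7128 bp downstream of the start that the count table gives.
Il3ra: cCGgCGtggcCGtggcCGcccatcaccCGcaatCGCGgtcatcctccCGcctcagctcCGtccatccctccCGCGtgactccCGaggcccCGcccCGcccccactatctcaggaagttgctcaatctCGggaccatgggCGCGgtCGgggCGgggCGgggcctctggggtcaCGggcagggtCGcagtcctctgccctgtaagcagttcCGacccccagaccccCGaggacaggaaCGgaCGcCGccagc
Rimkla: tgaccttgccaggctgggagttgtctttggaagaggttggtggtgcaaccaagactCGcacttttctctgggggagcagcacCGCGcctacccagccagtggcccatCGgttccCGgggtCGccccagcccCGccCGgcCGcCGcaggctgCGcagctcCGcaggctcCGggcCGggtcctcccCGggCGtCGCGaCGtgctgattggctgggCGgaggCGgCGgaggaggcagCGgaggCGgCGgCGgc
Gtpbp10: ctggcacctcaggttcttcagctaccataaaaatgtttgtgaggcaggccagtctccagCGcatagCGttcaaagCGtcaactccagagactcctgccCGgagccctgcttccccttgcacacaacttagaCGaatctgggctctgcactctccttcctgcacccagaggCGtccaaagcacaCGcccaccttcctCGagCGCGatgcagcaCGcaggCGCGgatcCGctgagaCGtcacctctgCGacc
Casp8: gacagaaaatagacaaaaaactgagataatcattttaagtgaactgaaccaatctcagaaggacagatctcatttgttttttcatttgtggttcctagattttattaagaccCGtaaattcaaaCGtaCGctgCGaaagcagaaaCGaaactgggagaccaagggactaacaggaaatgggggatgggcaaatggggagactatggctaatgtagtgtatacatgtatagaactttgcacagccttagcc
RefSeq entries matched 8 of 8 genes. Adam22 had 17 CG dinucleotides, Chst10 and Pabpc4l 13 each, and Pls1 10. The RefSeq start of Pabpc4l lies 278 bp downstream of the start used for counting. Its 250 bases, like those of Casp8, thus lie inside the counted gene span and not before it. The median of the 8 genes was 14.5, against 13 over 17659 promoters of tested genes (quartiles 5 and 21) and 6 over all 32851 promoters. The set therefore lay close to the middle of tested genes in CG number, and its promoters ran from CG-poor to CG-rich. The letters GGGCGG, searched on both strands as a description, occurred before Il3ra and Rimkla, 2 of the 8 genes, against 51.3% of tested promoters and 32.7% of all promoters. In the coordinates of the count table (GRCm38, Ensembl genes) Il3ra lies at chr14:14346495-14355490, Casp8 at chr1:58795374-58847503, Adam22 at chr5:8072352-8368160 and Rimkla at chr4:119465283-119492628. Chst10 lies at chr1:38863867-38898161, Pls1 at chr9:95752642-95845311, Pabpc4l at chr3:46442197-46448219 and Gtpbp10 at chr5:5537454-5559538, and reads were counted over the exons of each. The genes were spread over 6 chromosomes, with Chst10 and Casp8 both on chromosome 1 and Gtpbp10 and Adam22 both on chromosome 5.

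Library totals ran from 24490158 to 40591108 counts. Kmt2b transcripts were still counted in every Mll2 knockout library, at 145 and 136 CPM (read counts scaled to a common library size by TMM) in 2i, at 119 and 139 in FCS, and at 113 and 122 in EpiSC cells. Wild-type libraries of the line held 183 and 89.6 CPM in 2i, then 158 and 210 in FCS, then 164 and 139 in EpiSC cells. The averaged log2 fold change was -0.28 ± 0.167 (± SE; edgeR quasi-likelihood adjusted p = 0.744), and the genotypes were separate in FCS and EpiSC medium but not in 2i. A count over the whole gene cannot show whether a deleted part is missing. Replicate 2 of the libraries labelled Mll2 wild type in 2i had less Kmt2b than either knockout library of that medium, and this pair stood apart. The chi-square per gene between these 2 wild-type libraries was 376, against 19.8 to 250 in the other 17 groups. This value does not show which of the 2 is out of line. Without this library the 2i log2 fold changes in the Mll2 line were -1.65 for Il3ra, -3.65 for Casp8, -3.94 for Rimkla, -3.68 for Pabpc4l, -3.53 for Pls1, -2.82 for Adam22, -2.69 for Chst10 and -2.31 for Gtpbp10, and Il3ra and Casp8 were no longer called in 2i. The number of genes called lower in 2i was then 31. Without replicate 1 of the same group the values moved the other way, to -5.44 for Il3ra and -5.82 for Casp8, with 788 genes lower. Without knockout replicate 2 they were -6.71 for Casp8 and -8.32 for Rimkla. The 8 naive markers summed to 2489 to 3795 CPM in 2i, 842 to 2773 in FCS and 17.6 to 534 in EpiSC medium, where the Setd1a libraries held 353 to 534 CPM. The 8 primed markers summed to 107 to 300 CPM in 2i, 294 to 1717 in FCS and 297 to 1707 in EpiSC medium, so they did not separate FCS from EpiSC libraries.

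All 8 genes were lower in Mll2 knockout cells in 2i, where both knockout libraries lay below both wild-type libraries for each gene (8 of 8, against 17.4% of all tested genes). In FCS and in EpiSC medium this held for 7 of 8 genes (14.4% and 16.6% of tested genes). In all 3 media at once it held for 7 of 8 genes, against 1.44% of tested genes, and Gtpbp10 was the exception. This separation follows from how the genes were chosen and is no test of it. In bulk RNA, fewer cells expressing a gene and less RNA per cell cannot be told apart.

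**Figure D1:**
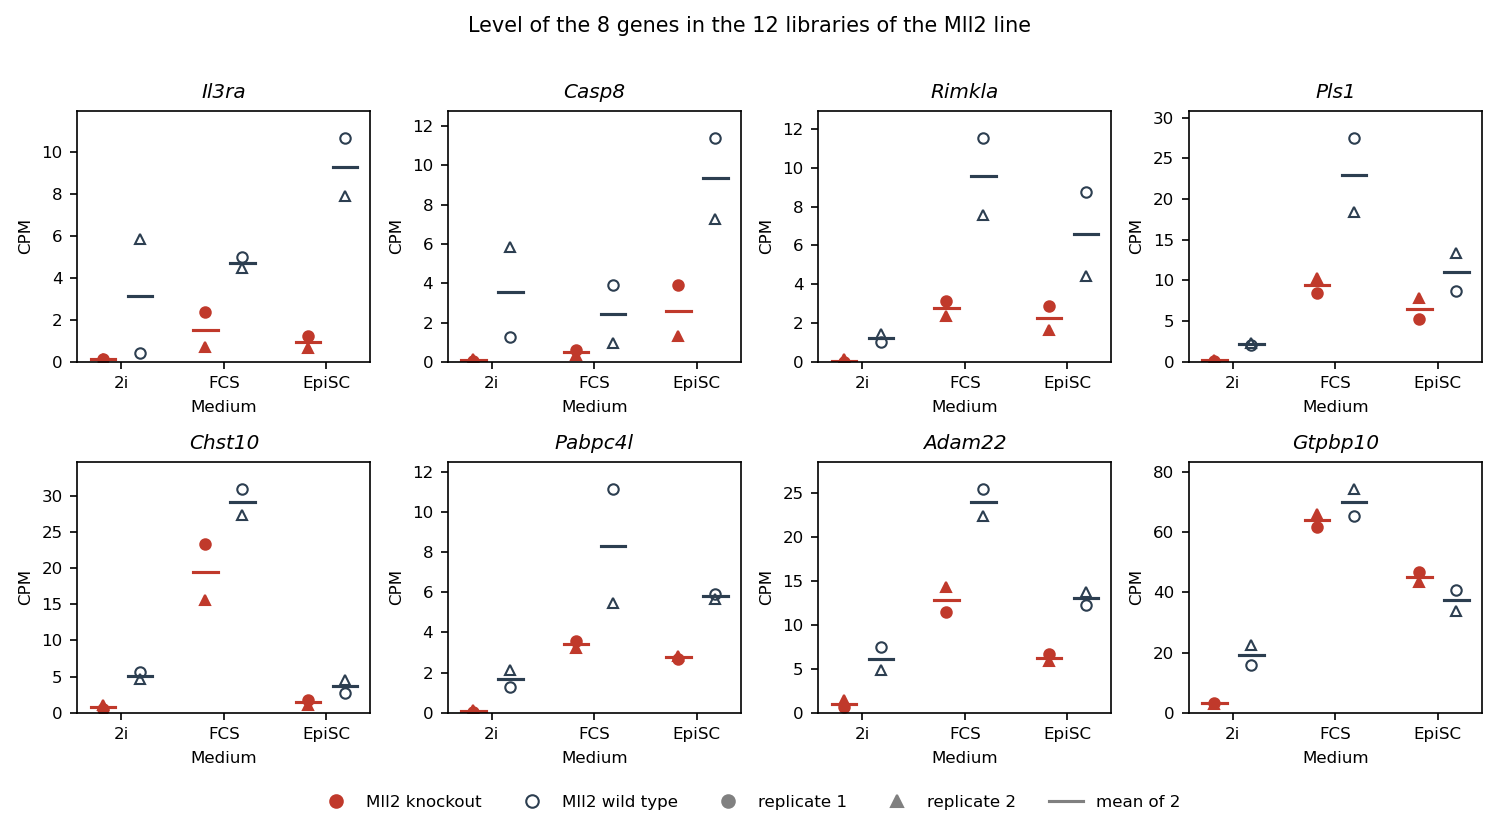
Level in CPM (scaled read counts, linear axis from 0) of each of the 8 genes in the 12 libraries of the Mll2 line, by medium, knockout (filled) left of wild type (open), with circles for replicate 1, triangles for replicate 2 and bars for the mean of 2. Knockout points lie below wild-type points in every medium for 7 genes, and for Gtpbp10 in 2i and not in FCS or EpiSC medium.

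Il3ra, the receptor chain, held 0.120 and 0.129 CPM in Mll2 knockout cells in 2i, against 0.403 and 5.86 CPM in wild-type cells. In FCS it held 2.37 and 0.697 CPM in knockout cells, against 4.97 and 4.48 CPM in wild-type cells. In EpiSC medium it held 1.25 and 0.679 CPM in knockout cells, against 10.7 and 7.87 CPM in wild-type cells. The genotypes did not overlap in any medium, but in 2i the 2 wild-type libraries were far apart. The higher one is the library that stands apart in Kmt2b. The lower one lay below the wild-type 2i libraries of the Bod1L (6.96 and 2.82 CPM) and Setd1a lines (2.90 and 3.34 CPM). The log2 fold change was -4.61 ± 0.903 in 2i, -1.65 without the higher library and -5.44 without the lower one. It was -1.63 ± 0.736 in FCS and -3.26 ± 0.780 in EpiSC medium.

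Casp8, the caspase at the head of the death receptor pathway, was nearly absent from Mll2 knockout cells in 2i, with 1 and 5 reads (0.0299 and 0.162 CPM), against 43 and 190 reads (1.24 and 5.86 CPM) in wild-type cells. The FCS libraries had 0.617 and 0.364 CPM in knockout cells, against 3.92 and 0.981 CPM in wild-type cells. The EpiSC libraries had 3.89 and 1.32 CPM in knockout cells, against 11.4 and 7.26 CPM in wild-type cells. The genotypes were separate in each medium, while replicates of one genotype differed by severalfold. The log2 fold changes were -5.18 ± 0.921, -2.32 ± 0.766 and -1.84 ± 0.714 in 2i, FCS and EpiSC medium. Without the 2i wild-type library that stands apart in Kmt2b the 2i value was -3.65, and without the other one it was -5.82. That other library, at 1.24 CPM, lay below the wild-type 2i libraries of the Bod1L (8.86 and 5.75 CPM) and Setd1a lines (3.82 and 3.17 CPM).

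Adam22, the LGI-binding membrane protein, held 0.658 and 1.42 CPM in Mll2 knockout cells in 2i, against 7.43 and 4.84 CPM in wild-type cells. The FCS libraries had 11.5 and 14.2 CPM in knockout cells, against 25.4 and 22.4 CPM in wild-type cells. The EpiSC libraries had 6.66 and 5.87 CPM in knockout cells, against 12.2 and 13.8 CPM in wild-type cells. Replicates lay close in FCS and EpiSC medium and less so in 2i, and the genotypes stood apart, with log2 fold changes of -2.56 ± 0.401, -0.90 ± 0.366 and -1.05 ± 0.369 in 2i, FCS and EpiSC medium.

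Among the enzymes, Rimkla had no read in one Mll2 knockout library in 2i, which allows up to 0.0898 CPM, and 0.129 CPM in the other, against 1.04 and 1.45 CPM in wild-type cells. The FCS libraries had 3.16 and 2.36 CPM in knockout cells, against 11.6 and 7.59 CPM in wild-type cells. The EpiSC libraries had 2.86 and 1.66 CPM in knockout cells, against 8.76 and 4.40 CPM in wild-type cells. Knockout libraries were thus clearly low in each medium, by -4.22 ± 0.652, -1.79 ± 0.490 and -1.54 ± 0.488 on the log2 scale in 2i, FCS and EpiSC medium. Chst10, the sulfotransferase, held 0.599 and 1.13 CPM in knockout cells in 2i, against 5.65 and 4.65 CPM in wild-type cells (log2 fold change -2.57 ± 0.387). In FCS it stayed high, at 23.4 and 15.6 CPM in knockout cells, against 31.0 and 27.3 CPM in wild-type cells (-0.58 ± 0.352). In EpiSC medium it held 1.80 and 1.09 CPM in knockout cells, against 2.81 and 4.49 CPM in wild-type cells (-1.34 ± 0.370). The knockout level of Chst10 in FCS was above the wild-type level of the same line in the other media.

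Pls1, the plastin, held 0.150 and 0.194 CPM in Mll2 knockout cells in 2i, against 2.05 and 2.37 CPM in wild-type cells (log2 fold change -3.66 ± 0.488). Pls1 in FCS held 8.44 and 10.4 CPM in knockout cells, against 27.6 and 18.4 CPM in wild-type cells (-1.29 ± 0.385). Pls1 in EpiSC medium held 5.23 and 7.88 CPM in knockout cells, against 8.70 and 13.4 CPM in wild-type cells (-0.75 ± 0.384). The EpiSC groups lay close to each other, with each knockout library below the wild-type library of the same replicate number. Pabpc4l, the poly(A)-binding protein relative, held 0.0599 and 0.129 CPM in knockout cells in 2i, against 1.27 and 2.13 CPM in wild-type cells (-4.12 ± 0.511). Pabpc4l in FCS held 3.57 and 3.24 CPM in knockout cells, against 11.2 and 5.46 CPM in wild-type cells (-1.29 ± 0.394). Pabpc4l in EpiSC medium held 2.68 and 2.85 CPM in knockout cells, against 5.89 and 5.69 CPM in wild-type cells (-1.07 ± 0.394). Its replicates lay close together in EpiSC medium, and the genotypes were separate in each medium.

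Gtpbp10, the mitochondrial ribosome GTPase, held 3.17 and 3.07 CPM in Mll2 knockout cells in 2i, against 15.7 and 22.7 CPM in wild-type cells (log2 fold change -2.62 ± 0.325). The FCS libraries had 61.8 and 65.9 CPM in knockout cells, against 65.3 and 74.4 CPM in wild-type cells (-0.13 ± 0.2996). The EpiSC libraries had 46.8 and 43.3 CPM in knockout cells, against 40.8 and 33.8 CPM in wild-type cells (0.27 ± 0.3003). The genotypes were well apart in 2i, overlapped in FCS, and in EpiSC medium both knockout libraries were the higher ones.

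Averaged over the media, the Mll2 log2 fold changes were -3.16 for Il3ra, -3.11 for Casp8, -2.52 for Rimkla, -2.16 for Pabpc4l, -1.90 for Pls1, -1.50 for Adam22 and for Chst10, and -0.83 for Gtpbp10. Past an edgeR adjusted p of 0.05, 149 genes were lower in this average (0.634% of those tested) and 14 were higher (0.0596%). All 8 genes were among the 149, as the choice required. Il3ra ranked 7 and Casp8 8 from the lowest, Chst10 stood at rank 80 near the median of the 149 genes (-1.53), and Gtpbp10 stood at rank 145 by fold change, and was no longer called without 9 of the 12 Mll2 libraries in turn. In 2i alone 101 genes were lower (0.430%), all 8 among them, and 8 were higher (0.0340%). Without replicate 1 of the 2i knockout libraries 15 genes were lower there, and Il3ra, Casp8, Rimkla, Chst10 and Adam22 were not among those called. In FCS and in EpiSC medium alone edgeR called 0 genes (0.00%), with 615 and 952 genes at an unadjusted p under 0.05 and 5 and 44 genes called by DESeq2. With the inferred replicate pairs as a block, 186 genes were lower in FCS (0.791%) and 370 in EpiSC medium (1.57%). Of the 8 genes, these held Casp8, Rimkla, Pls1 and Pabpc4l in FCS, and Il3ra, Casp8, Rimkla, Chst10 and Pabpc4l in EpiSC medium. Fitted on the Mll2 line alone, with 6 residual degrees of freedom, the average had 1 lower gene, none of the 8 among them, while the log2 fold changes stayed between -0.81 (Gtpbp10) and -3.14 (Il3ra).

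Set against all other libraries of the same medium, both Mll2 knockout libraries were the lowest of the 12 for 8 of 8 genes in 2i (5.41% of tested genes). The same held for 5 of 8 genes in FCS (3.12%) and for 6 of 8 in EpiSC medium (2.29%). The exceptions were Chst10, Adam22 and Gtpbp10 in FCS, and Pls1 and Gtpbp10 in EpiSC medium. This order follows in large part from how the genes were chosen and is no test of it.

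On the log2 scale the Mll2 difference was largest in 2i for all 8 genes, and this does not hold for differences in CPM. Without the 2i wild-type library that stands apart in Kmt2b this did not hold for Il3ra, whose 2i value was then -1.65, below that of EpiSC medium in size. The media are part of the contrasts that chose the genes, so a test of a difference between them is not independent of the choice and is given as a description. Gtpbp10 had -2.62 in 2i, -0.13 in FCS and 0.27 in EpiSC medium. It was the 1 gene of 23501 that edgeR called for such a difference (0.00426%), with 798 genes at an unadjusted p under 0.05, and it was no longer called without 11 of the 12 Mll2 libraries in turn or with the Mll2 line alone. The replicate block called 378 genes (1.61%), Casp8, Pls1, Pabpc4l and Gtpbp10 among them, and nothing is read from these calls.

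**Figure D2:**
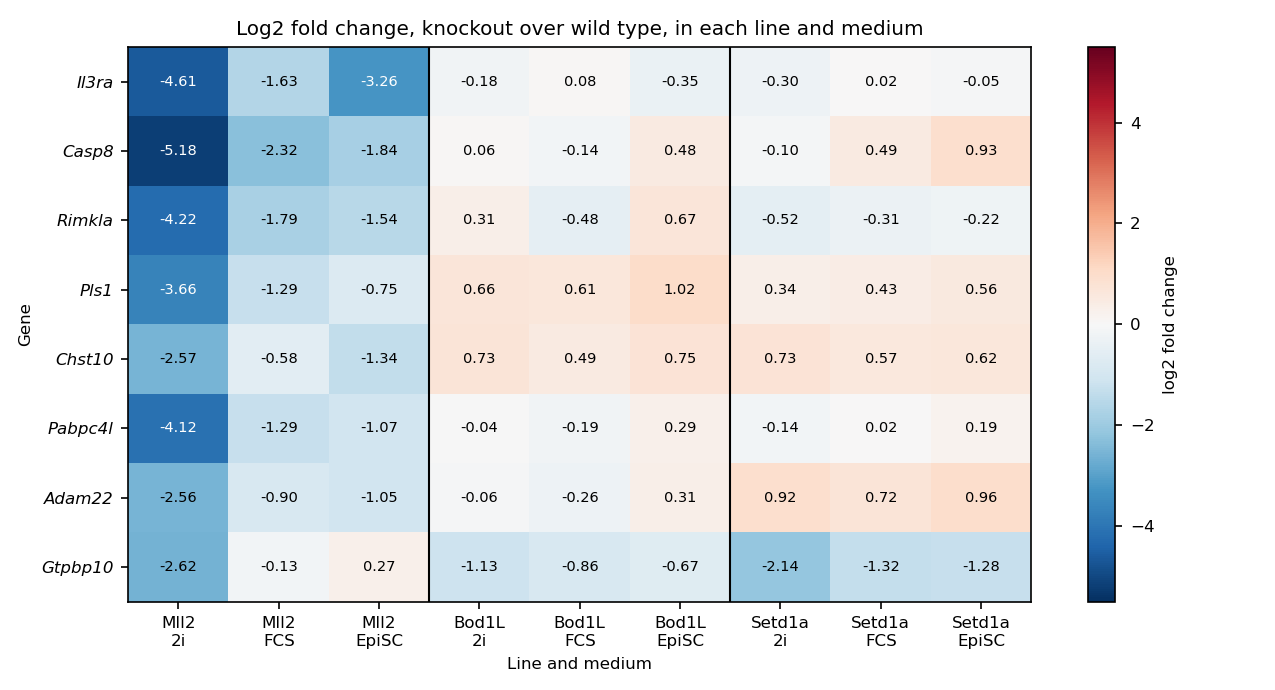
Log2 fold change of knockout over wild type (colour, with the value in each cell; edgeR model of all 36 libraries, 2 libraries a group) for the 8 genes in rows and each line and medium in columns. The 3 Mll2 columns are blue for 7 genes, the Bod1L and Setd1a columns are mostly pale or red for those 7, and Gtpbp10 is blue in all Bod1L and Setd1a columns.

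In the other 2 lines the 7 genes were mostly near wild type or above it, and these values are again descriptions. Rimkla was lower in Setd1a knockout cells in 2i (-0.52), FCS (-0.31) and EpiSC medium (-0.22). In Bod1L knockout cells it was lower in FCS (-0.48) and higher in 2i (0.31) and EpiSC medium (0.67). None of these was called. Both knockout libraries lay below both wild-type libraries for Rimkla and Pabpc4l in Setd1a 2i and Bod1L FCS, and for Rimkla in Setd1a FCS. The share of tested genes with this order was not counted in these groups. In single media of the Mll2 line it was 14.4% to 17.4%, so nothing is read from it. Averaged over media in Bod1L knockout cells, the log2 fold changes of the 7 genes ran from -0.15 (Il3ra) to 0.77 (Pls1). In Setd1a knockout cells they ran from -0.35 (Rimkla) to 0.87 (Adam22). Il3ra had a median of 5.60 CPM (range 3.24 to 15.4) in Bod1L knockout cells, against 6.21 (2.82 to 18.5) in Bod1L wild-type cells. Casp8 had a median of 8.43 CPM (3.13 to 26.2) in Bod1L knockout cells, against 8.87 (3.19 to 21.6) in wild-type cells of that line. For both genes the 6 knockout and 6 wild-type libraries overlapped almost fully.

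Adam22 went the other way in the Setd1a line. It held 30.6 and 24.4 CPM in Setd1a knockout cells in 2i, against 14.8 and 14.3 CPM in wild-type cells. In FCS it held 22.5 and 15.6 CPM in knockout cells, against 13.1 and 9.95 CPM in wild-type cells, and in EpiSC medium 31.2 and 16.3 CPM in knockout cells, against 15.6 and 8.72 CPM in wild-type cells. Every Setd1a knockout library was above both wild-type libraries of its medium. The averaged log2 fold change was 0.87 ± 0.211, among the 3.29% of genes called higher in that average. Pls1 and Chst10 were also above wild type in both other lines, at 0.77 and 0.65 for Bod1L and 0.44 and 0.64 for Setd1a. For Chst10 every knockout library was above both wild-type libraries of its medium in both lines, which held in all 3 media for 0.928% of tested genes in Bod1L and 4.67% in Setd1a. They were not among the 0.102% of genes called higher for Bod1L or the 3.29% for Setd1a, but both were called in both lines with the replicate block (2.11% and 14.3%).

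Gtpbp10 was lower in knockout cells of both other lines. It held 21.1 and 9.21 CPM in Bod1L knockout cells in 2i, against 43.1 and 23.1 CPM in wild-type cells, and 29.1 and 32.9 CPM in FCS, against 55.9 and 56.8 CPM. In EpiSC medium it held 27.6 and 25.9 CPM in Bod1L knockout cells, against 39.1 and 45.9 CPM in wild-type cells. The genotypes were apart in every Bod1L group. In the Setd1a line it held 9.90 and 7.36 CPM in knockout cells in 2i, against 41.2 and 34.7 CPM in wild-type cells. It held 22.9 and 23.5 CPM in Setd1a knockout cells in FCS, against 59.6 and 56.3 CPM in wild-type cells, and 17.6 and 26.2 CPM in EpiSC medium, against 50.8 and 55.6 CPM. Both knockout libraries lay below both wild-type libraries in every medium of either line, which was so for Gtpbp10 alone of the 8 genes (2.81% of tested genes for Bod1L and 6.04% for Setd1a). Its averaged log2 fold changes were -0.89 ± 0.175 for Bod1L and -1.58 ± 0.178 for Setd1a, inside the 1.92% and 5.57% of genes called lower. Its Mll2 average was -0.83 ± 0.176. In 2i alone the values were -2.62 for Mll2, -1.13 for Bod1L and -2.14 for Setd1a. Of the 149 genes lower in the Mll2 average, 138 were called in neither other line, and 6 of the 8 genes were among these 138. Gtpbp10 and Adam22 were the other two.

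Wild-type cells of the 3 lines showed where these genes are normally expressed, which the choice did not use directly. All 18 wild-type libraries, however, also entered the knockout contrasts that chose the genes. Comparisons of media and of lines among these libraries are therefore not fully independent of the choice. Per kilobase of exon, the median level over 18 wild-type libraries was highest for Gtpbp10 (6.51 CPM per kb), then Il3ra (3.77), Pls1 (3.27), Casp8 (1.76), Rimkla (1.58), Pabpc4l (1.08), Adam22 (1.06) and Chst10 (0.530). The ranges of neighbours in this order overlapped.

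Of the 8 genes, 5 were lower in 2i than in FCS over the wild-type lines, against 13.3% of tested genes called lower and 14.5% higher. Rimkla had a median of 2.50 CPM (range 1.04 to 3.97) in 2i and 7.72 (5.86 to 11.6) in FCS, with no overlap of the 6 and 6 libraries (log2 fold change -1.77, adjusted p = 6.08e-05). Pls1 had a median of 6.39 CPM (2.05 to 16.0) in 2i and 24.7 (16.4 to 28.1) in FCS (-1.95, adjusted p = 1.47e-06), and Gtpbp10 28.9 CPM (15.7 to 43.1) in 2i and 58.2 (55.9 to 74.4) in FCS (-1.08, adjusted p = 6.86e-05). Each of these 3 was separate between the media in every line. Chst10 (-1.25, adjusted p = 8.95e-05) and Pabpc4l (-1.11, adjusted p = 7.18e-04) were lower too. Il3ra, Casp8 and Adam22 gave -0.32, 0.56 and -0.31, and none of these passed the edgeR test. Without the 2i library that stands apart in Kmt2b, Il3ra gave -1.30 in 2i against FCS, and without the other Mll2 wild-type library in 2i -0.042. The 3 media comparisons share libraries.

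In EpiSC medium against 2i, 5 of the 8 genes were higher and 0 lower, against 25.1% and 27.4% of tested genes. Il3ra had a median of 10.2 CPM (range 5.71 to 18.5) in EpiSC medium and 3.12 (0.403 to 6.96) in 2i, a log2 fold change of 1.51 (adjusted p = 0.00420). Rimkla (1.65, adjusted p = 4.33e-05), Pabpc4l (1.15, adjusted p = 2.17e-04), Casp8 (1.08, adjusted p = 0.0285) and Gtpbp10 (0.60, adjusted p = 0.00596) were higher as well. Casp8 lost its call with the replicate block (adjusted p = 0.0797). In EpiSC medium against FCS, Casp8 (1.63, adjusted p = 0.00289) and Il3ra (1.20, adjusted p = 0.0235) were higher and Pls1 (-1.78, adjusted p = 3.11e-06), Chst10 (-1.28, adjusted p = 5.01e-05) and Gtpbp10 (-0.48, adjusted p = 0.0308) lower. Of all tested genes 20.4% were higher and 20.6% lower. With the block Il3ra was lost (adjusted p = 0.0592), and without the Mll2 line Il3ra (1.31, adjusted p = 0.0558), Chst10 (-0.42, adjusted p = 0.225) and Gtpbp10 (-0.26, adjusted p = 0.377) were lost. Leaving out each of the 12 libraries in turn, Gtpbp10 lost its call 7 times and Il3ra 5 times. Casp8 had a median of 9.34 CPM (4.41 to 21.6) in EpiSC medium and 2.61 (0.981 to 8.88) in FCS, and the 2 sets of libraries overlapped. All EpiSC libraries carry library numbers of a separate, higher range and no wild-type library of the other media does, so medium and library range cannot be told apart. Among the knockout libraries, replicate 1 of Setd1a in 2i also carries such a number, so the Setd1a knockout comparison in 2i mixes the ranges. The 8 fibroblast feeder markers summed to 89.7 to 6763 CPM in EpiSC medium, 16.4 to 56.4 in 2i and 15.8 to 257 in FCS, and their part in the EpiSC values was not tested.

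**Figure D3:**
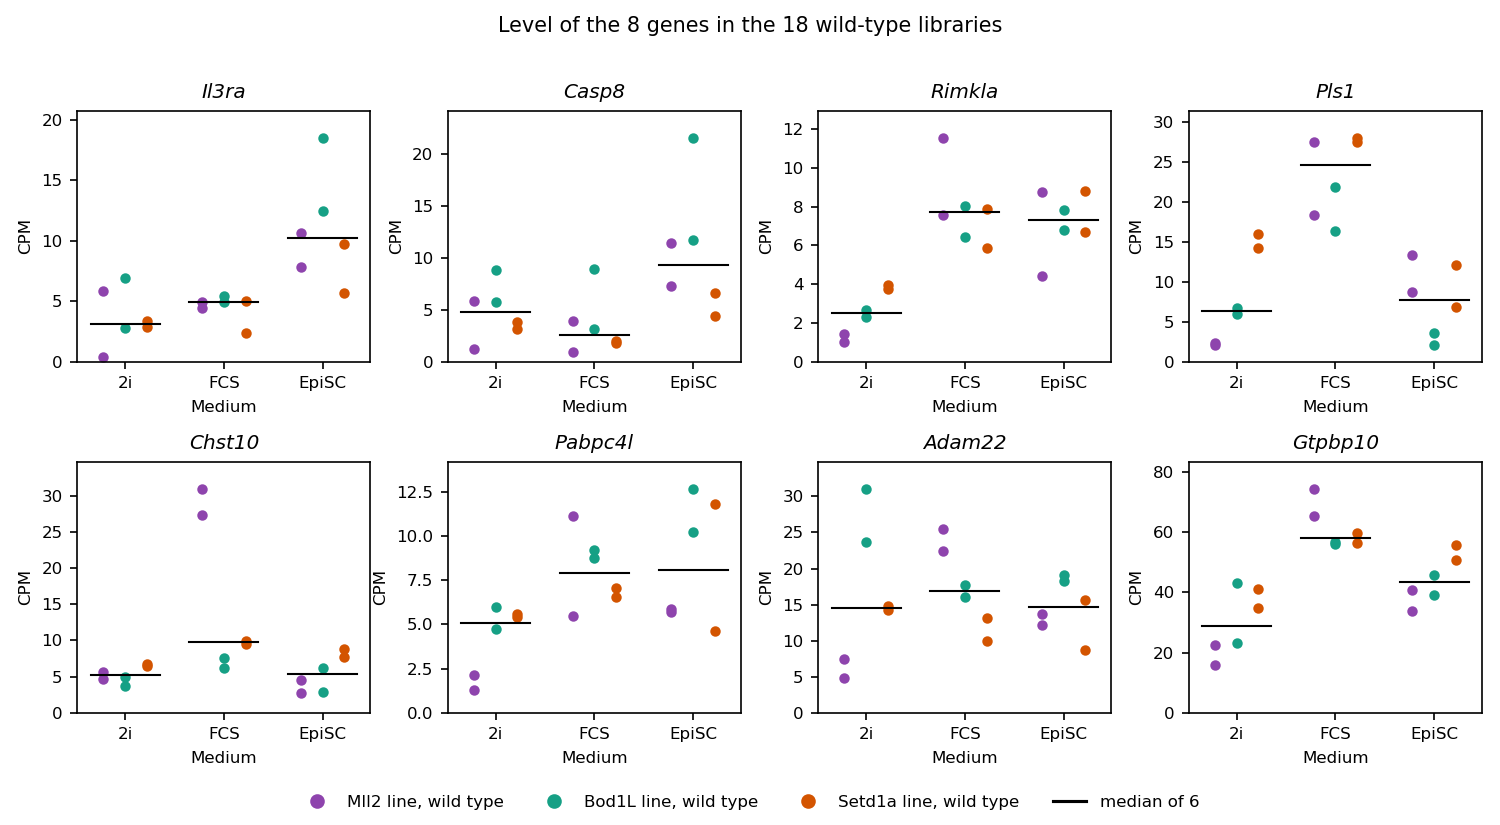
Level in CPM (linear axis from 0) of the 8 genes in the 18 wild-type libraries by medium, with points coloured by line and a bar at the median of 6. Rimkla, Pls1 and Gtpbp10 are lower in 2i than in FCS, and Pls1 is at similar levels in 2i and EpiSC medium. The median of Il3ra is highest in EpiSC medium, and the Mll2 points lie lowest in 2i for 5 genes.

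The Mll2 line itself was low in 2i before any knockout. Both Mll2 wild-type libraries in 2i lay below all 4 wild-type libraries of the Bod1L and Setd1a lines for 5 of the 8 genes, against 9.64% of tested genes. These were Rimkla, Pls1, Pabpc4l, Adam22 and Gtpbp10. Pls1 held 2.05 and 2.37 CPM in Mll2 wild-type cells, against 6.76 and 6.02 CPM in Bod1L wild-type and 16.0 and 14.2 CPM in Setd1a wild-type cells. Adam22 held 7.43 and 4.84 CPM in Mll2 wild-type cells, against 31.1 and 23.6 CPM in Bod1L wild-type and 14.8 and 14.3 CPM in Setd1a wild-type cells. In FCS and in EpiSC medium this was so for 0 of the 8 genes, against 9.80% and 8.44% of tested genes. Whether the line difference itself depended on the medium was not tested. Without the Mll2 line, Pls1 was lower in EpiSC medium than in 2i (-0.90, adjusted p = 0.0115), against 0.17 over 3 lines, and Gtpbp10 (0.42, adjusted p = 0.118) and Casp8 (0.92, adjusted p = 0.143) lost their calls there. In 2i against FCS, Rimkla (-1.18, adjusted p = 0.0157), Pls1 (-1.23, adjusted p = 0.00241) and Gtpbp10 (-0.69, adjusted p = 0.0238) held without the Mll2 line, and Chst10 (-0.62) and Pabpc4l (-0.52) did not.

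Averaged over the media, 5 of the 8 genes differed among the 3 wild-type lines, against 14.7% of tested genes (edgeR, F test of 2 contrasts). These were Pls1 (adjusted p = 0.00144), Pabpc4l (0.0199), Adam22 (0.0235), Casp8 (0.0319) and Chst10 (0.0381). Casp8 averaged 5.11 ± 3.96 CPM in Mll2, 9.98 ± 6.38 in Bod1L and 3.64 ± 1.76 in Setd1a wild-type cells (SD over 6 libraries in 3 media). Pls1 averaged 12.1 ± 9.87 CPM in Mll2, 9.50 ± 7.88 in Bod1L and 17.4 ± 8.58 in Setd1a wild-type cells. In a fit of wild-type libraries alone only Pls1 (0.00594) and Adam22 (0.0255) kept their calls among these 5. With the 2i library that stands apart in Kmt2b left out, Il3ra was called too, and with the other Mll2 wild-type library in 2i left out it was not.

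Genes chosen on one contrast must move together in it. Across the 12 libraries of the Mll2 line the median Pearson r over the 28 pairs was 0.79, and no pair was below 0. Across the 24 libraries of the Bod1L and Setd1a lines the median was 0.005, with 13 of 28 pairs below 0. There Pabpc4l and Rimkla gave the highest r (0.79) and Pls1 and Casp8 the lowest (-0.73). The points share media and library ranges, and the values are descriptions.

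Relatives and partners of the 8 genes were listed from general knowledge, but with earlier results of these data known. The number of calls in the list is therefore a description. Of 46 tested, 5 were lower in the Mll2 average and 0 higher, against 0.634% and 0.0596% of all tested genes, with a list median of -0.16 beside -0.02 over all tested genes. Csf2ra, the receptor chain for GM-CSF and a close relative of Il3ra, held 2.12 and 1.10 CPM in Mll2 knockout cells in 2i, against 6.28 and 5.55 CPM in wild-type cells. In FCS it held 9.43 and 3.46 CPM in knockout cells, against 13.3 and 11.9 CPM in wild-type cells, and in EpiSC medium 2.77 and 2.17 CPM, against 10.9 and 8.78 CPM. The genotypes did not overlap in any medium (averaged log2 fold change -1.61 ± 0.276, adjusted p = 0.00435). Stat5b, a transcription factor downstream of that receptor family, was lower as well (-1.09 ± 0.229, adjusted p = 0.0212), while Stat5a (-0.23, adjusted p = 0.955), Jak2 (-0.33, adjusted p = 0.899) and the shared beta chain Csf2rb, at a mean of 0.197 CPM in knockout and 0.185 CPM in wild-type libraries, were not called.

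Lgi2, which encodes a secreted protein of the family that binds Adam22, had the largest difference in the list. It held 3.35 and 2.65 CPM in Mll2 knockout cells in 2i, against 7.46 and 5.73 CPM in wild-type cells, and 2.13 and 3.36 CPM in FCS, against 10.0 and 6.48 CPM. In EpiSC medium it held 1.58 and 1.05 CPM in knockout cells, against 17.1 and 4.96 CPM in wild-type cells. Knockout was below wild type throughout (-1.93 ± 0.272, adjusted p = 9.24e-04). Adam23 (-0.34, adjusted p = 0.958) and Adam11 (-0.60, adjusted p = 0.753), the closest relatives of Adam22, were not called, though Adam11 was with the replicate block (adjusted p = 0.0171). Rimklb, the second gene for the neuropeptide ligase, averaged 42.0 CPM over the media in knockout cells and 72.0 CPM in wild-type cells (-0.96 ± 0.179, adjusted p = 0.00828). B4galt2, a galactosyltransferase that builds the chain below the HNK-1 group, averaged 9.45 CPM in knockout cells and 14.7 CPM in wild-type cells (-1.25 ± 0.196, adjusted p = 0.00180). Leaving out each of the 12 Mll2 libraries in turn, Csf2ra, Lgi2 and B4galt2 kept their calls, Rimklb lost its call 3 times and Stat5b 7 times. In the fit of the Mll2 line alone none of the 5 was called, with adjusted p between 0.0668 and 0.171.

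**Figure D4:**
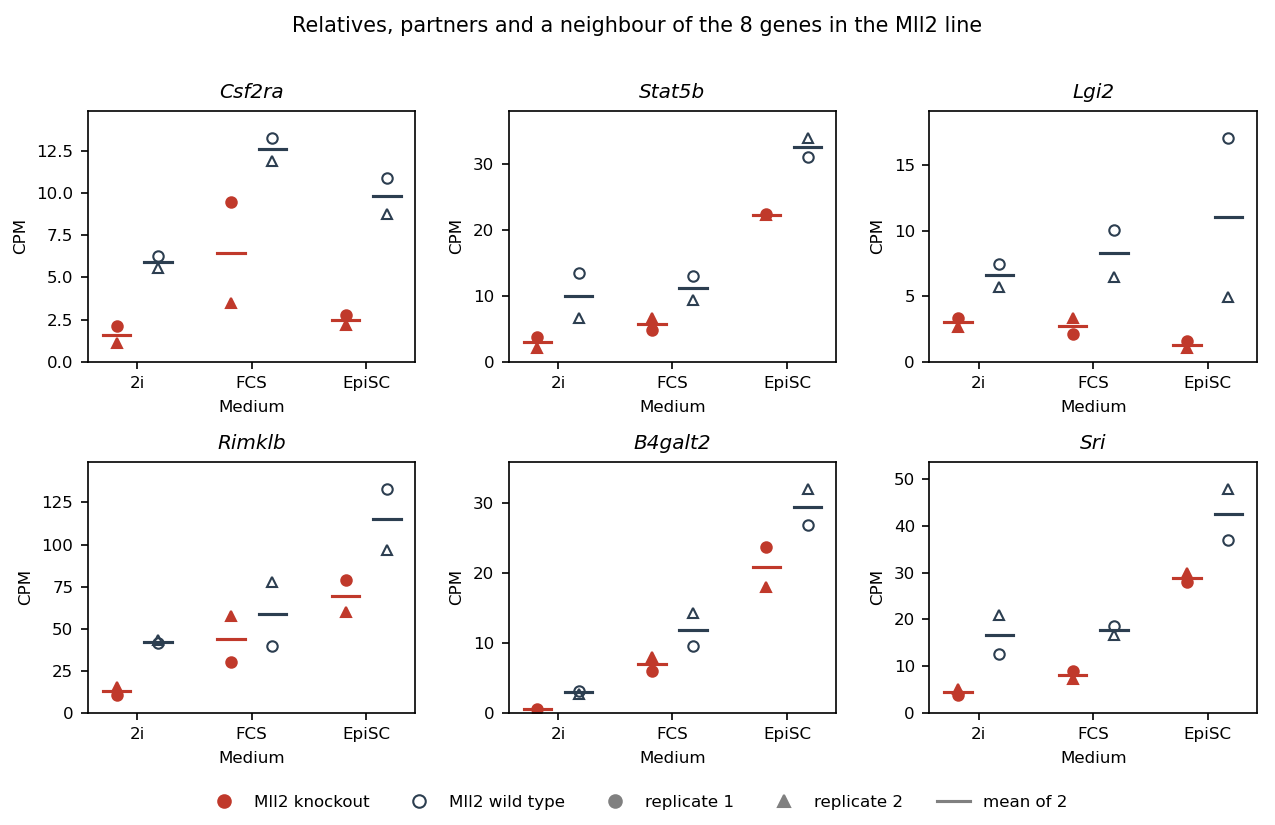
Level in CPM (linear axis from 0) of the 5 listed relatives and partners called lower in the Mll2 average, and of Sri, the gene next to Adam22, in the 12 libraries of the Mll2 line, knockout (filled) left of wild type (open). Knockout and wild-type points are separate in every medium for Csf2ra, Stat5b, Lgi2, B4galt2 and Sri, and overlap in FCS for Rimklb.

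The other relatives gave no call in the Mll2 average. The caspase Casp9, and Fadd and Ripk1, which act with Casp8, lay between -0.21 and 0.43. Cflar, the inhibitory homologue of Casp8 that lies beside it on chromosome 1, gave -0.93 ± 0.3003 (adjusted p = 0.241, and 0.00115 with the replicate block). The plastins Pls3 (0.09) and Lcp1 (0.44) and the poly(A)-binding proteins Pabpc1 (-0.02) and Pabpc4 (-0.05) had small differences and were not called. Mtg1 and Mtg2, GTPases of mitochondrial ribosome assembly like Gtpbp10, were not called in the Mll2 average. They were the 2 of 46 listed genes called lower in the Bod1L average, against 1.92% of tested genes. Both were among 3 listed genes called lower in the Setd1a average (5.57% of tested genes), where 3 others were called higher (3.29%). Nothing is read from these counts. Of 20 tested subunits of H3K4 methyltransferase complexes none was called in the Mll2 average (median 0.09), and of 39 bivalent developmental regulators none was called (median 0.48). Over all tested genes 0.634% were called lower and 0.0596% higher, with a median of -0.02. At such shares lists of this size can easily hold no call, so nothing is read from the absence of calls.

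Within 100 kb of the 8 genes lay 50 annotated neighbours, of which 27 were tested. Of these, 1 was lower in the Mll2 average, Sri, against 0.634% of all tested genes. Sri, which encodes the calcium-binding protein sorcin, lies 2973 bp from the 3′ end of Adam22 on the opposite strand. It held 3.74 and 5.14 CPM in Mll2 knockout cells in 2i, against 12.6 and 20.9 CPM in wild-type cells. In FCS it held 8.92 and 7.18 CPM in knockout cells, against 18.5 and 16.7 CPM in wild-type cells, and in EpiSC medium 28.0 and 29.8 CPM, against 37.1 and 47.9 CPM. The genotypes were separate in each medium (-1.20 ± 0.266, adjusted p = 0.0316, and 2.87e-06 with the replicate block), but the call was lost without 11 of the 12 Mll2 libraries in turn. The other tested neighbours were not called, and the median over the 27 was -0.19, beside -0.02 over all tested genes. Overlapping neighbours that were tested were Gm37760 inside Casp8 (-0.93, adjusted p = 0.783) and Zmynd12 on the strand opposite Rimkla (-0.46, adjusted p = 0.970). Gm37760 lies on the strand of Casp8.

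Markers of other cells were set beside the Mll2 genotype. The 8 feeder markers summed to 26.7 to 32.8 CPM in Mll2 knockout libraries in 2i, against 21.0 to 23.9 CPM in wild-type libraries. The sums were 15.8 to 20.7 CPM in knockout libraries in FCS, against 20.0 to 33.9 CPM, and 138 to 179 CPM in EpiSC medium, against 89.7 to 117 CPM. Feeder sums were thus separate and higher in knockout cells in 2i and EpiSC medium, with list medians of 0.75 and 0.32, and none of the 8 markers was called. The 6 general pluripotency markers summed to 2036 to 2226 CPM in knockout libraries in 2i, against 2332 to 3585 CPM in wild-type libraries, without overlap, and overlapped in FCS and EpiSC medium. The 8 primitive endoderm markers summed to 93.1 to 484 CPM in knockout libraries and 29.2 to 521 CPM in wild-type libraries of all media. Within each medium these sums overlapped between the genotypes. Their list median in the Mll2 average was 0.31, with 3 of the 8 below 0. Only Sox7 was called (1.72, edgeR adjusted p = 0.0319), against 0.0596% of all tested genes called higher, and nothing is read from this 1 marker. The part of these markers in the values of the 8 genes was not tested.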

How the data were processed

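The deposited table holds raw counts per gene from RNA-seq, with gene lengths. Per the file headers, the authors made these counts with featureCounts, reverse-stranded (setting 2), a minimum mapping quality of 1 and Ensembl 87 genes. The submitters' processing notes name GSNAP, featureCounts 1.5.2 and GRCm38 (mm10). Trimming and duplicate removal are not stated in the labels.

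After removing 92 spike-in rows with 0 counts, 49671 genes were fitted with edgeR 4.0.16 (R 4.3.3): TMM scaling, filterByExpr with a minimum count of 10, and quasi-likelihood tests in a single model with 18 groups of 2 libraries with 18 residual degrees of freedom. P values were Benjamini-Hochberg adjusted over 23501 genes and called below 0.05. SE values are those of edgeR's log2 fold changes. Averages weighed the 3 media equally, and wild-type media comparisons the 3 lines equally. CPM used TMM-scaled library sizes. A count of 0 was given a limit of 3 reads, which covers counting error only. The model was tested on simulated data.

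Replicate numbers are not stated to pair samples. Replicate differences of knockout cells correlated with those of wild-type cells (r 0.40 to 0.85 over the 9 combinations of line and medium), so pairing was inferred from the data, and a fit with the replicate pairs as a block (9 residual degrees of freedom) was added. Other alternatives were DESeq2 1.42.0, its size factors in edgeR, no filter, only the libraries compared, and leaving out each library. The 8 genes, the lists and the tests were chosen with earlier results of these data known. Named genes are the 8 genes, Kmt2b, listed or neighbouring genes that were called, relatives of the 8 genes, the 5 genes most like the set and the 5 lowest others. The comparison of Mll2 wild-type libraries with the other lines, and media comparisons without the Mll2 line, were chosen after seeing the data.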

Additional observations from a re-analysis of the deposited data

Results flagged for a closer look

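Gtpbp10 was picked out because its knockout effect differed between groups under the same contrast. The Mll2 log2 fold change was -2.62 in 2i, -0.13 in FCS and 0.27 in EpiSC medium, and the edgeR test of a difference between the 3 media gave an adjusted p of 0.0416. This p comes from the contrasts that chose the gene and is not independent of the choice. Leaving out 11 of 12 Mll2 libraries in turn ended the call, with adjusted p from 0.0214 to 0.388 over the 12. Both knockout libraries in 2i were lower than both wild-type libraries, at 3.17 and 3.07 CPM against 15.7 and 22.7 CPM.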

How the results depend on the processing

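The 8 genes kept their direction in the Mll2 average and in 2i under every alternative run. In single media so did Il3ra, Casp8, Rimkla, Pls1, Chst10, Pabpc4l and Adam22. The number of genes lower in the Mll2 average (149) was 328 with DESeq2, 490 with no filter, 1136 with the replicate block and 1 with the Mll2 line alone, and 76 to 185 leaving out each library. In 2i (101) it was 263, 484, 991 and 6, and 15 to 788. In FCS (0) it was 5, 72 and 186 with DESeq2, no filter and the block. In EpiSC medium (0) it was 35, 80 and 370, and 0 to 3 leaving out each library. Genes whose Mll2 effect differed between media (1) numbered 24, 203, 378 and, with the line alone, 0, and 0 to 62 leaving out each library. Listed genes called (5) were 9 with the block, 0 with the line alone and 3 to 5 leaving out each library. Called neighbours (1) were 2 with no filter, 3 with the block, 0 with the line alone and 0 to 1 leaving out each library. Genes differing among wild-type lines (3445) ran from 2248 to 4093. The cause of these shifts was not tested.

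In wild-type cells some values changed sign. Chst10 in EpiSC medium against 2i (-0.03) was 0.0076 with no filter and -0.24 to 0.12 leaving out each library. With the Bod1L and Setd1a lines only, EpiSC medium against 2i gave -0.90 for Pls1, 0.21 for Chst10 and -0.40 for Adam22, EpiSC medium against FCS gave 0.094 for Rimkla and 0.11 for Adam22, and 2i against FCS gave 0.51 for Adam22. Leaving out each library, EpiSC medium against FCS ran from -0.31 to 0.021 for Rimkla and -0.24 to 0.26 for Pabpc4l, and EpiSC medium against 2i from -0.070 to 0.26 for Adam22. No replicate block could be fitted for the difference among wild-type lines. Each group holds 2 cultures, and several knockout groups lie under 1 CPM, where few reads stand behind a value.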

Other observations

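The genes whose level followed the mean of the 8 genes most closely over the 36 libraries were Hook1 (r = 0.92), Chrna7 (0.90), Raver2 (0.90), Hectd2 (0.89) and Slain1 (0.89). Their log2 fold changes in the Mll2 average were -1.03, -1.03, -1.50, -1.10 and -1.35, with edgeR adjusted p of 0.0536, 0.0810, 0.00190, 0.140 and 0.0357. The r values are descriptions, since the libraries share media, lines and library ranges.

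The lowest other genes called in the Mll2 average and in neither other line were Gm26520 (-4.32), Batf2 (-3.74), Mansc1 (-3.53), Hfm1 (-3.49) and Tceal1 (-3.28). Tceal1 had a median of 0.210 CPM (range 0.0323 to 0.995) in Mll2 knockout libraries and 2.40 CPM (0.951 to 4.11) in wild-type libraries. Hfm1, a meiotic helicase, had a median of 0.230 CPM (0.0299 to 2.13) in knockout libraries and 2.54 CPM (0.432 to 12.4) in wild-type libraries. Gm26520 and Batf2 stayed under 1 CPM in every library of the line.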
